A study of Mus musculus with 127 samples.

Results

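The 10 genes described here encode the main enzymes that remove peroxides and superoxide in red cell precursors: the peroxiredoxins Prdx1, Prdx2, Prdx3 and Prdx6, the glutathione peroxidases Gpx1 and Gpx4, the superoxide dismutases Sod1 and Sod2, catalase (Cat) and thioredoxin (Txn1). They were chosen by gene symbol from the 24320 symbols of the deposited table, taking the transcript with the highest mean where a symbol had several rows. All 10 were among the 2540 genes kept for comparison, which had a mean log2(RPKM + 1) of at least 1 over all cells. RPKM is the number of reads of a transcript scaled to its length and to sequencing depth. The measured units were 127 single cells of C57BL/6J mouse marrow, each labelled as an erythroblast, whose cDNA was amplified with SMART-Seq chemistry on a microfluidic C1 chip. There were 48 cells with Flvcr deleted, 31 from EPO-treated wild-type mice, EPO being erythropoietin, and 48 from wild-type mice. Flvcr exports heme from the cell, and EPO is the hormone that drives red cell production. The labels also sort the cells into classes A, B, C and D, along which the recorded signal of Ter119, a red cell surface antigen, increased. Ages, the EPO dose, how Flvcr was deleted and the number of animals are not stated in the labels. Each group therefore counted as 1 sample on its own chip or chips, chip and group cannot be told apart, and no p-value was made from cells.

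Red cells carry oxygen on heme iron, and the slow oxidation of hemoglobin releases superoxide inside the cell. Superoxide dismutases turn superoxide into hydrogen peroxide, Sod1 in the cytosol and Sod2 in the mitochondria. Hydrogen peroxide is then removed by catalase, by the selenoenzyme Gpx1 using glutathione, and by peroxiredoxins, most of which are recharged by a thioredoxin. Prdx2 is among the most abundant proteins of the mature red cell, and mice without it have hemolytic anemia. Gpx4 reduces lipid peroxides in membranes, and Prdx3 is the mitochondrial peroxiredoxin.

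4 promoters are shown because their genes carry the results below. Gpx1 and Prdx2 were the most abundant members, and Prdx1 and Sod1 are examples of members that were lower in later classes. RefSeq's GRCm38.p6 table held promoters for 9 of the 10 members, with 12 promoters in all, each covering 250 bases before and 50 bases after a gene start. Capitals mark matches on either strand to the antioxidant response element core TGACNNNGC, which NRF2 binds, to the GATA site AGATAA, or to the CACCC-type box CCNCNCCC of the Krüppel-like factors.
Gpx1, chr9:108338830-108339129, plus strand: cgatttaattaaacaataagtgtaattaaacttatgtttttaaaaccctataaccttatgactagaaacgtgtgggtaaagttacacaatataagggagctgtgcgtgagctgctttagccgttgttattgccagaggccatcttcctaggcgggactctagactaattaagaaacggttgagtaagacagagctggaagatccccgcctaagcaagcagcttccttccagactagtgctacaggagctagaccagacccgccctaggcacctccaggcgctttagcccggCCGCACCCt
Prdx2, chr8:84969372-84969671, plus strand: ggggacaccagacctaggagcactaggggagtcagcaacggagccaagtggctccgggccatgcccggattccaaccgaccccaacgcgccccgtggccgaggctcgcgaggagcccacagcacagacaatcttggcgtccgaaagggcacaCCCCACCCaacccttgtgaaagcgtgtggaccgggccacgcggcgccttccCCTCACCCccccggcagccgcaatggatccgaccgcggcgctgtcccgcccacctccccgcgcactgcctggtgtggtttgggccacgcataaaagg
Prdx1, chr4:116685349-116685648, plus strand: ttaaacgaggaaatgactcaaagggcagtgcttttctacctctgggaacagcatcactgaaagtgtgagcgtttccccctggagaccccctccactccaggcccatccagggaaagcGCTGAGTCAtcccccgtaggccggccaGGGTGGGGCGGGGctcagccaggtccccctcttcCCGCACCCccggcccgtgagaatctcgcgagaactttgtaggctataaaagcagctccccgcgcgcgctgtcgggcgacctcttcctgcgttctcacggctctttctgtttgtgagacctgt
Sod1, chr16:90220512-90220811, plus strand: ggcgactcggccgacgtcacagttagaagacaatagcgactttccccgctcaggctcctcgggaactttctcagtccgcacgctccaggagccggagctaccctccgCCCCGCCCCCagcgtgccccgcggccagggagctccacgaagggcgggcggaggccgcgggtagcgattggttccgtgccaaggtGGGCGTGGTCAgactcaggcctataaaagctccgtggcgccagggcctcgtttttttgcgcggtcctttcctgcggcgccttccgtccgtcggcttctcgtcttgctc
The antioxidant core occurred in the Prdx1 promoter, starting 133 bases before the gene, and in the Sod1 promoter, starting 56 bases before it. In Sod1 it overlapped a CACCC-type match. Sod2 and Txn1, which were also lower in class D than in class B in all 3 groups, had 0 matches to the core. The core was present in 2 of the 12 member promoters, against 12.4% of all 32851 promoters of the same length. A CACCC-type match was present in 11 of the 12, against 49.5% of all promoters, and the GATA letters in 0 of the 12, against 11.2%. The 12 are not independent, since Gpx4 has several of them. Its promoters chr10:80053315-80053614 and chr10:80053409-80053708 overlap and share the same CACCC-type match. In Gpx1 the single CACCC-type match lay within the first 50 bases of the gene. These are matches of letters and not shown to be sites.

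The cells differed in how many genes were seen, which touches every comparison below. In classes B, C and D, which held 30 Flvcr-deleted, 24 EPO-treated and 42 wild-type cells, a gene was detected from an RPKM of 1 up, and the median number of detected genes was 1196.5 in Flvcr-deleted, 1385 in EPO-treated and 2199 in wild-type cells. The median of estimated reads per cell was 3.52 M for Flvcr-deleted and 4.08 M for wild-type cells. The read depth of EPO-treated cells is unknown, since 100% of their values had at most 2 decimals, against at most 0.0682% in any other cell, so they may have been processed apart. Every cell of classes B to D had at least 6 of 12 erythroid markers, and their granulocyte and monocyte markers summed to at most 5.53 RPKM in Flvcr-deleted, 29.2 RPKM in EPO-treated and 20.3 RPKM in wild-type cells. Class A went against its label in wild-type cells, where globins made up at most 0.199% of summed RPKM and 3 of 6 cells had at least 3 of 5 mast cell and basophil markers. Group differences are therefore averaged over classes B, C and D with equal weight, and class A is given on its own. Flvcr1, listed as Mfsd7b, was detected in no Flvcr-deleted cell (0 of 48), no EPO-treated cell (0 of 31) and 1 of 48 wild-type cells, so it did not check the deletion. The class letters did not mark the same Ter119 level in each group: the median normalised Ter119 value in classes B, C and D was 0.381, 0.608 and 0.849 in Flvcr-deleted, 0.0988, 0.281 and 0.556 in EPO-treated cells, and 0.452, 0.643 and 0.823 in wild-type cells. Fewer transcripts per cell and a smaller detected share of them cannot be told apart in these values.

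Gpx1 and Prdx2 were the most abundant members in all 3 groups. On the log2(RPKM + 1) scale, with the mean SD over cells within a class, Gpx1 averaged 11.66 ± 0.52 in Flvcr-deleted cells (n = 30), 10.57 ± 2.25 in EPO-treated cells (n = 24) and 11.65 ± 0.48 in wild-type cells (n = 42). Among all genes other than globins it ranked 1st in Flvcr-deleted, 4th in EPO-treated and 3rd in wild-type cells. Prdx2 averaged 11.04 ± 0.69 in Flvcr-deleted, 10.14 ± 2.60 in EPO-treated and 11.15 ± 0.43 in wild-type cells, and ranked 4th, 5th and 5th in that order. These levels are scaled to transcript length. RefSeq names near copies of Prdx2, and how reads with several matches were counted is not stated. The order of genes is uncertain to that extent. The gap between Gpx1 and Prdx2 did not exceed both SDs in Flvcr-deleted cells (0.62) or EPO-treated cells (0.43), but did in wild-type cells (0.50).

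Sod1 came next in every group, at 8.69 ± 1.73 in Flvcr-deleted, 7.23 ± 3.96 in EPO-treated and 9.97 ± 1.30 in wild-type cells. Gpx4 followed at 7.94 ± 1.81, 7.20 ± 2.52 and 8.31 ± 0.70, and then Prdx3 at 5.12 ± 3.67, 3.60 ± 3.37 and 6.34 ± 2.05, in the same order of groups. The gap between Sod1 and Gpx4 did not exceed both SDs in Flvcr-deleted (0.75) or EPO-treated cells (0.03), and in wild-type cells it was 1.66, against SDs of 1.30 and 0.70. In Flvcr-deleted cells the gap of 2.35 between Prdx2 and Sod1 exceeded both SDs, and in EPO-treated cells the gap of 3.60 between Gpx4 and Prdx3 did. Txn1, Prdx1 and Sod2 followed between 3.07 and 4.51, and no neighbours among them differed by more than their SDs. Prdx6 and Cat were lowest in all 3 groups, at 1.84 and 0.92 in Flvcr-deleted, 0.94 and 1.11 in EPO-treated cells, and 2.51 and 1.87 in wild-type cells. Cat was seen in 8 of 30 Flvcr-deleted cells (26.7%, with an exact 95% interval of 12.3% to 45.9%). It was seen in 6 of 24 EPO-treated cells (25.0%, interval 9.77% to 46.7%) and in 15 of 42 wild-type cells (35.7%, interval 21.6% to 52.0%). Prdx6 was detected in 12 of 30, 6 of 24 and 23 of 42 cells of those groups. Such intervals cover counting error only.

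Together the 10 members took a median of 5.30% of the summed RPKM without globins in Flvcr-deleted cells (range 1.35% to 14.0%), 3.25% in EPO-treated cells (range 0.201% to 9.35%) and 3.88% in wild-type cells (range 2.16% to 8.35%). Gpx1, Prdx2 and Sod1 supplied most of it, at 59.9% to 97.5% of the members' sum in Flvcr-deleted, 49.8% to 98.1% in EPO-treated and 80.9% to 98.4% in wild-type cells. The share of single cells overlapped between all 3 groups.

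**Figure D1:**
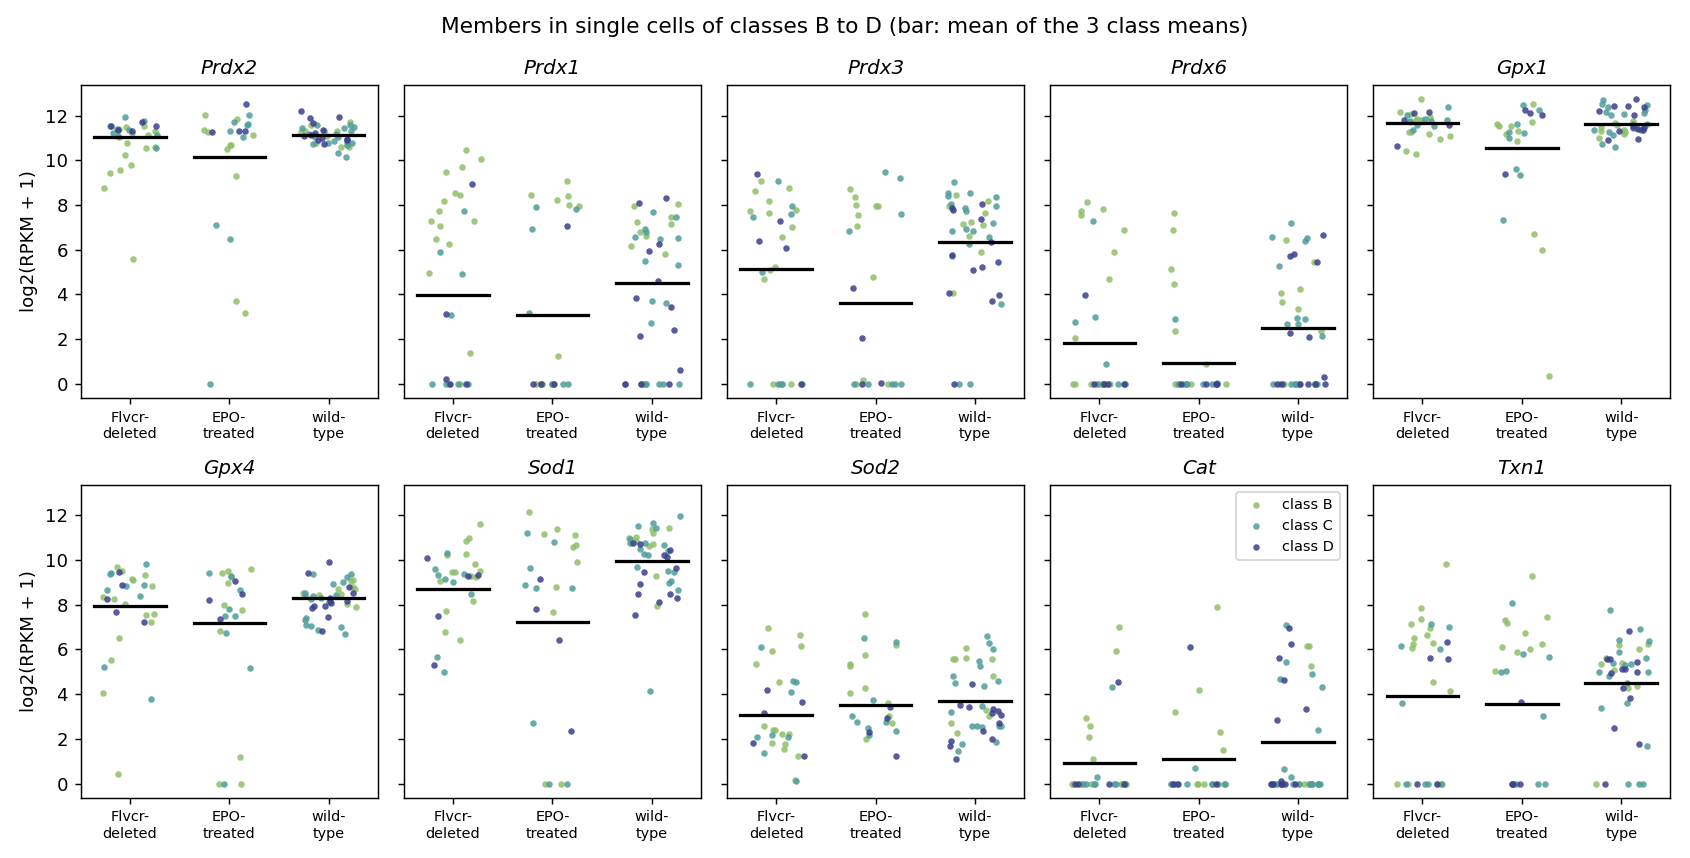
Level of each member in every cell of classes B to D, as log2(RPKM + 1), with Flvcr-deleted cells on the left, EPO-treated cells in the middle and wild-type cells on the right. Points are cells coloured by class and the bar is the mean of the 3 class means. In Gpx1 and Prdx2, EPO-treated cells reach far lower than wild-type cells, which lie close together, and Cat is at 0 in 21 of 30, 17 of 24 and 24 of 42 cells from left to right.

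Flvcr-deleted cells were first set against wild-type cells, which asked how the loss of heme export goes with transcript levels in cells of the same class letter. Gpx1 and Prdx2 were close in both groups as deposited, and Sod1, the cytosolic superoxide dismutase, was lower in Flvcr-deleted cells of all 3 classes. The rule for calling a gene higher or lower was a log2 difference of at least 1 whose sign was the same in classes B, C and D. By that rule 1 of the 10 members, Sod1, was lower and 0 were higher, while 48.3% of the 2540 kept genes were lower and 3.74% higher. The median kept gene differed by -1.08, so most genes were lower in Flvcr-deleted cells and the members are also given relative to that shift. Relative to the median gene, 1 member, Gpx1, was higher and 0 were lower, against 16.5% and 17.4% of kept genes. The members' median difference was -0.59, and 8 of the 10 lay above the median gene. That count was 5 without class B, 6 among cells with 1000 to 2000 detected genes, and 1 with no filter on low values, where the median gene is at 0.

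Of the peroxiredoxins, Prdx2 was the least shifted. It had a lowest, median and highest value of 46.5, 2417 and 3948 RPKM in Flvcr-deleted cells, against 1143, 2236 and 4731 RPKM in wild-type cells, a difference of -0.11 in the class-weighted log2 mean. The groups overlapped, with 5 of 30 Flvcr-deleted cells below the lowest wild-type cell, all in class B. Prdx1 ranged over 0, 67.3 and 1408 RPKM in Flvcr-deleted cells, against 0, 41.3 and 321 RPKM in wild-type cells. Its difference was 0.75 in class B, -1.24 in class C and -1.06 in class D, so the sign was not shared, and 7 of 30 Flvcr-deleted cells lay above the highest wild-type cell. AV051173, a long noncoding RNA gene, overlaps Prdx1 in the RefSeq table, and without strand their reads cannot be told apart, so part of the Prdx1 values is uncertain. Prdx6, which also reduces phospholipid peroxides, differed by 0.21, -0.84 and -1.39 in classes B, C and D.

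Prdx3, the mitochondrial member, was seen in 21 of 30 Flvcr-deleted cells (70.0%, with an exact 95% interval of 50.6% to 85.3%) and in 39 of 42 wild-type cells (92.9%, 80.5% to 98.5%). Its lowest, median and highest values were 0, 88.1 and 660 RPKM in Flvcr-deleted cells, against 0, 128 and 520.1 RPKM in wild-type cells. The difference was -1.22 over the 3 classes, made of -1.64, -2.41 and 0.38, so it did not count as lower. Class D rests on 5 Flvcr-deleted cells, with Prdx3 at 0, 65.6, 83.4, 154 and 660 RPKM.

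Gpx1 had 1265, 3520 and 6795 RPKM as its lowest, median and highest value in Flvcr-deleted cells, against 1544, 2893 and 6833 RPKM in wild-type cells. Its difference was 0.11, 0.04 and -0.11 in classes B, C and D and 0.01 over all 3, the smallest of the members, which is 1.08 relative to the median gene. With each cell scaled to the same sum, Gpx1 turned to -0.83 and Prdx2 differed by -0.95, beside -1.39 for the median gene. Gpx4 differed by -1.13 in class B, -0.05 in class C and 0.04 in class D, and 6 of 30 Flvcr-deleted cells lay below the lowest wild-type cell at 102 RPKM. All 6 of those cells were in classes B or C.

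Sod1 had a lowest, median and highest value of 31.2, 627 and 3132 RPKM in Flvcr-deleted cells, against 16.9, 1311 and 4063 RPKM in wild-type cells. The difference was -1.24 in class B, -1.59 in class C and -1.03 in class D, or -1.29 over the 3 classes, which is -0.22 relative to the median gene. With each cell scaled to the same sum without globins it was -0.86 and short of the rule. All 30 Flvcr-deleted cells lay inside the wild-type range. Sod2 differed by -0.61 with values of -1.08, -0.80 and 0.05 in the 3 classes. Cat differed by -0.95, Txn1 by -0.57, and neither reached the rule.

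The comparison was repeated in cells that showed similar numbers of genes. Among cells with 1000 to 2000 detected genes, 12 Flvcr-deleted and 18 wild-type cells, the median kept gene differed by -0.09 and the split of called genes was 406 higher and 484 lower, against 95 higher and 1227 lower over all cells of classes B to D. In those cells Sod1 differed by -0.32, Prdx3 by -1.42, Gpx1 by -0.31 and Prdx2 by -0.06, and 0 members were lower and 1 was higher. Txn1 and Prdx6 turned to 2.10 and 2.06 there. The class B mean of wild-type cells then rests on 2 cells. What part the number of detected genes played in the Sod1 difference was not tested beyond this.

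**Figure D2:**
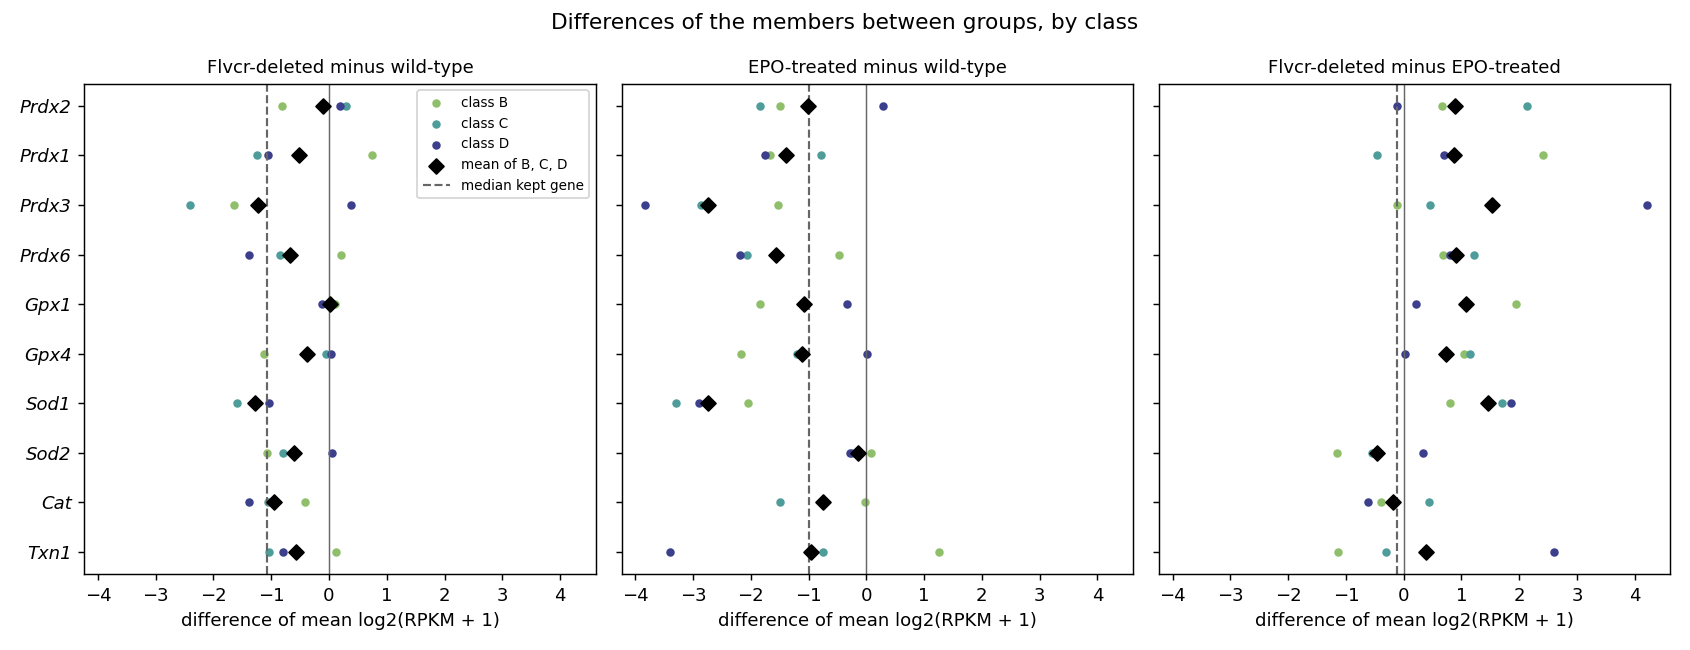
Difference of mean log2(RPKM + 1) of each member. The left panel takes wild-type from Flvcr-deleted cells, the middle panel wild-type from EPO-treated cells, and the right panel EPO-treated from Flvcr-deleted cells. Coloured points are classes B, C and D, diamonds their mean, and the dashed line the median kept gene at -1.08, -0.99 and -0.12. Gpx1 sits at 0.01 on the left, and Sod1 and Prdx3 lie well left of the dashed line in the middle.

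EPO-treated cells were next set against wild-type cells, which asked how the same genes stood under the hormone. There 5 members were lower by the rule (Prdx1, Prdx3, Prdx6, Gpx1 and Sod1) and 0 were higher, while 42.0% of kept genes were lower and 0.512% higher. The median kept gene differed by -0.99 and the members' median by -1.10. Relative to the median gene, 2 members, Prdx3 and Sod1, were lower and 0 were higher, against 11.1% and 8.15% of kept genes. Sod1 and Prdx3 stood at the 4.29th and 4.37th percentile of all kept differences.

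Sod1 ran from 0 over a median of 461 to 4620.0 RPKM in EPO-treated cells, against 16.9, 1311 and 4063 RPKM in wild-type cells. The difference was -2.05, -3.29 and -2.89 in classes B, C and D, or -2.74 over all 3, and 6 of 24 EPO-treated cells lay below the lowest wild-type cell. Prdx3 ran over 0, 22.7 and 705 RPKM in EPO-treated cells, against 0, 128 and 520.1 RPKM in wild-type cells. It differed by -1.53, -2.86 and -3.83 in classes B, C and D. In class D the 4 EPO-treated cells had Prdx3 at 0, 0.04, 3.15 and 18.7 RPKM, while wild-type class D cells had a median of 43.1 RPKM. The groups still overlapped there, since the lowest wild-type class D cell was at 0.

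Among the other peroxiredoxins, Prdx1 differed by -1.66, -0.78 and -1.75 and Prdx6 by -0.47, -2.06 and -2.18 in classes B, C and D. Prdx2 had 0, 2475 and 5907 RPKM as its lowest, median and highest value in EPO-treated cells, against 1143, 2236 and 4731 RPKM in wild-type cells. Its mean difference of -1.01 did not share a sign over the classes, with -1.49, -1.83 and 0.29. The median EPO-treated cell thus held as much Prdx2 as the median wild-type cell, and 6 of the 24 EPO-treated cells lay below the lowest wild-type cell.

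Gpx1 likewise had a low tail, with 0.28, 2512 and 5957 RPKM in EPO-treated cells, against 1544, 2893 and 6833 RPKM in wild-type cells. Its difference was -1.83, -1.06 and -0.33 in classes B, C and D, or -1.08 over all 3, and 0.03 when class medians replaced means. In 7 of the 24 EPO-treated cells, 3 in class B, 3 in class C and 1 in class D, Gpx1 was below every wild-type cell. Those 7 cells had 792 to 1346 detected genes, globins at 33.8% to 86.5% of summed RPKM and 7 to 9 of 12 erythroid markers. Few detected genes did not set them apart. EPO-treated cells 13 and 24 had 638 and 835 detected genes, with Gpx1 at 4449 and 4816.5 RPKM, inside the wild-type range. Cell 8 had Gpx1 at 0.28 RPKM, Sod1 and Gpx4 at 0 and Prdx2 at 622 RPKM, cell 25 had Gpx1 at 649.7 RPKM and Prdx2, Gpx4 and Sod1 at 0, and cell 14 had Gpx1 at 662 RPKM beside the highest Prdx2 of the group, 5907 RPKM. Prdx2 was also below every wild-type cell in 6 of the 7, cell 14 being the exception. These cells were singled out after their values were seen, and the part of their low numbers of detected genes in these values was not tested.

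Gpx4 differed by -2.17, -1.20 and 0.01 in classes B, C and D, Sod2 by 0.08, -0.25 and -0.28, and Cat by -0.03, -1.49 and -0.76. Sod2 was the member nearest to no difference, and all 24 EPO-treated and all 42 wild-type cells held it. Txn1 went opposite ways, at 1.26 in class B and -3.40 in class D. In class D it stood at 0, 0, 0 and 11.4 RPKM in EPO-treated cells, while 12 of the 13 wild-type cells of that class held it. Among cells with 1000 to 2000 detected genes, 12 EPO-treated and 18 wild-type, the Sod1 difference was -0.17 and that of Prdx3 -1.84, with 203 kept genes higher and 355 lower, against 13 and 1066 over all cells.

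**Figure D3:**
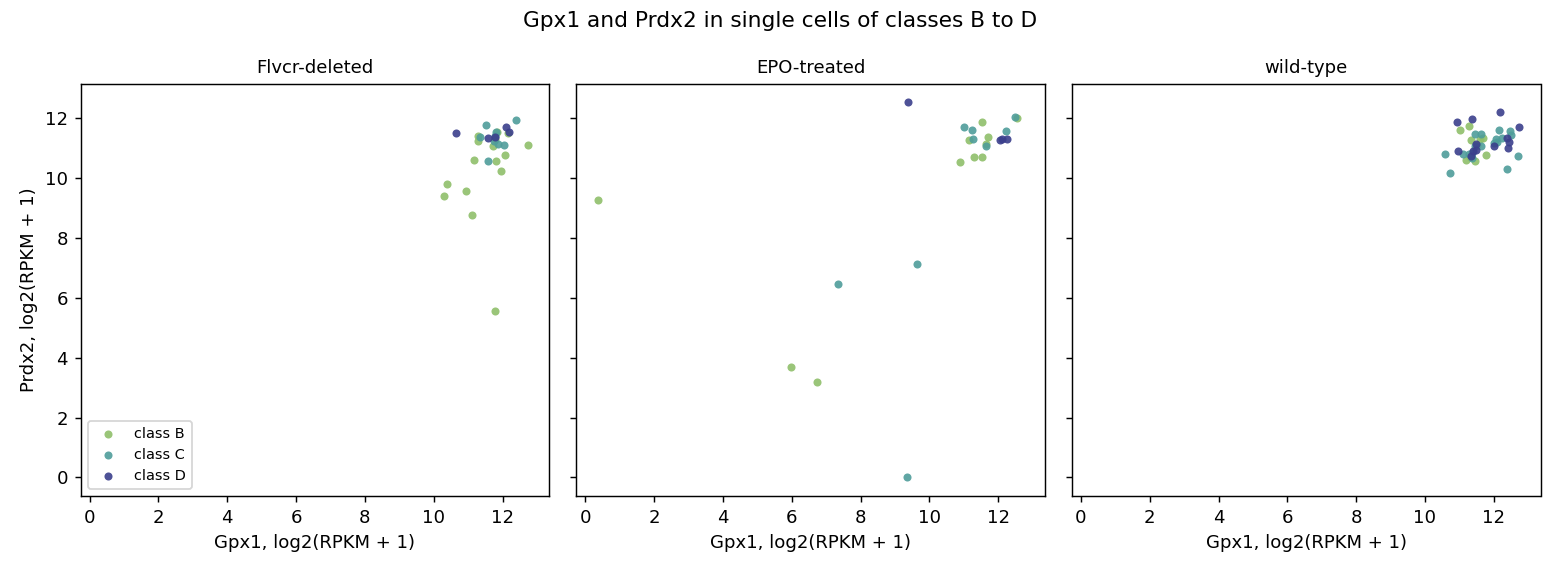
Prdx2 (vertical) against Gpx1 (horizontal) in every cell of classes B to D, both as log2(RPKM + 1), for Flvcr-deleted, EPO-treated and wild-type cells from left to right, coloured by class. 5 Flvcr-deleted class B cells lie below and 7 EPO-treated cells lie left of the wild-type cells, which form 1 cloud from 1143 RPKM of Prdx2 and 1544 RPKM of Gpx1 up.

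Set directly against EPO-treated cells, Flvcr-deleted cells had higher mean log2 values of Sod1 and Gpx1 in all 3 classes. These differences share their samples with the comparisons above. By the rule 2 members were higher (Gpx1 and Sod1) and 0 were lower, against 7.76% and 8.86% of kept genes, and relative to the median gene 3 were higher (Prdx3, Prdx6 and Sod1) and 0 lower, against 10.2% and 6.85%. The difference was 1.09 for Gpx1 (1.94, 1.10 and 0.22 in classes B, C and D) and 1.46 for Sod1 (0.81, 1.70 and 1.86). When class medians replaced means it was 0.23 for Gpx1 and 0.47 for Sod1. In class D the median of Gpx1 was lower in Flvcr-deleted cells, at 3526 RPKM, against 4340 RPKM in EPO-treated cells. The EPO-treated class D mean includes cell 14, at 662 RPKM. Prdx3 differed by -0.11, 0.45 and 4.22, so class D made most of its mean of 1.52. With each cell scaled to the same RPKM sum, 0 members were higher and the kept genes split into 88 higher and 342 lower, against 197 and 225 as deposited. Sod1 also turned to -0.15 among cells with 1000 to 2000 detected genes. Group and processing cannot be told apart in these differences.

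Along the classes, Prdx1 was lower in class D than in class B in every group. Prdx2 and Gpx1 were not, in the values as deposited and with all cells of these classes included. With each cell scaled to the same RPKM sum, globins included, Gpx1 turned to -0.47 in Flvcr-deleted and -0.46 in wild-type cells, and Prdx2 to -0.62 in wild-type cells. In Flvcr-deleted cells Prdx1 averaged 2.45 ± 3.86 in class D (SD over cells, n = 5) and 7.08 ± 2.91 in class B (n = 16), a difference of -4.63. The difference was -2.91 in EPO-treated and -2.82 in wild-type cells. It was already present in class C, at -4.68 in Flvcr-deleted, -1.80 in EPO-treated and -2.68 in wild-type cells. Detection of Prdx1 was 2 of 5 cells in class D and 15 of 16 in class B of Flvcr-deleted cells, 1 of 4 and 7 of 11 in EPO-treated cells, and 9 of 13 and 9 of 10 in wild-type cells.

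Prdx2 averaged higher in class D than in class B, by 1.21 in Flvcr-deleted, 1.99 in EPO-treated and 0.21 in wild-type cells as deposited, and by 0.60, 0.30 and -0.62 with each cell scaled to the same sum. In Flvcr-deleted class D cells it stood at 2583, 2652, 2929, 2953 and 3370.1 RPKM (SD 0.15 on the log2 scale), and in EPO-treated class D cells at 2472, 2521, 2537 and 5907 RPKM. Wild-type class D cells ran from 1718 over a median of 2263 to 4731 RPKM and overlapped both. Gpx1 differed between class D and class B by 0.14, 1.87 and 0.36, and Gpx4 by 0.85, 1.86 and -0.32, for Flvcr-deleted, EPO-treated and wild-type cells in that order. The EPO-treated values include the 3 class B cells low in Gpx1. Flvcr-deleted class B likewise includes 4 globin-poor cells, described below. Its other 12 cells averaged 11.80 for Gpx1, 10.58 for Prdx2 and 6.94 for Gpx4, against 11.66, 11.49 and 8.31 in class D. Without those 4 cells Gpx1 was thus slightly lower in class D.

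Sod1 was lower in class D than in class B by 1.01 to 2.06 on the log2 scale, with differences of -1.01 in Flvcr-deleted, -2.06 in EPO-treated and -1.22 in wild-type cells. The median kept gene differed by -0.43, -1.36 and -0.90 in that order, which leaves Sod1 at -0.58, -0.70 and -0.32 relative to it. Sod2 differed by -0.55, -2.05 and -1.69, Prdx6 by -2.38, -2.49 and -0.78, and Txn1 by -1.47, -5.21 and -0.56, in the same order. In wild-type cells Prdx6 and Txn1 lay above the median gene, at 0.12 and 0.34 relative to it, and Sod2 below, at -0.79. Prdx3 differed by 0.42 in Flvcr-deleted cells, against -3.90 in EPO-treated and -1.60 in wild-type cells. Cat differed by less than 1 in each group. Counting differences of at least 1, 4 members were lower and 1 higher in Flvcr-deleted cells, where 30.6% of kept genes were lower and 13.5% higher. In EPO-treated cells 6 were lower and 3 higher (58.3% and 10.9% of kept genes), and in wild-type cells 4 were lower and 0 higher (46.1% and 5.39%). The shares of lower members were thus near the shares of all genes. Within a chip, Spearman's rho between Prdx1 and the Ter119 value was -0.54 over 30 Flvcr-deleted cells, -0.08 over 21 EPO-treated cells and -0.27 over 42 wild-type cells.

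**Figure D4:**
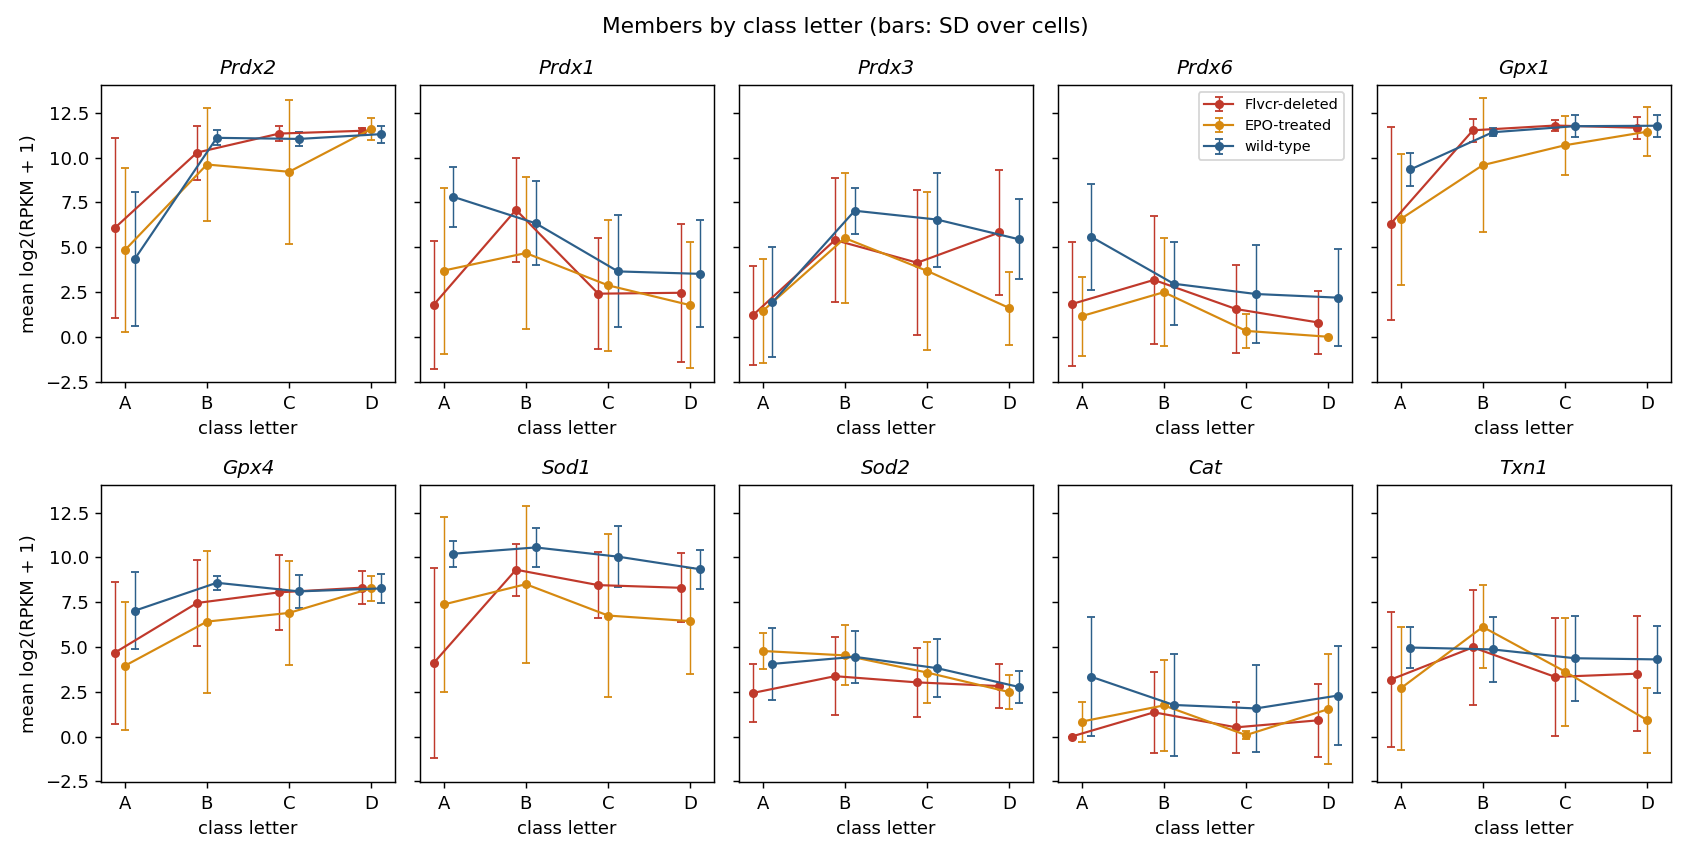
Mean log2(RPKM + 1) of each member in classes A, B, C and D, with bars giving the SD over cells, for Flvcr-deleted, EPO-treated and wild-type cells. Prdx1 and Sod1 lie lower in class D than in class B in each group, Prdx2 and Gpx1 stay high from class B on, and class A of wild-type cells stands apart with high Prdx1, Prdx6 and Sod1.

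Class A differed between the groups in the members as in the markers. Its 18 Flvcr-deleted cells carried the suffix d or a, 9 of each, whose meaning the labels do not state. In suffix d cells Prdx2 was detected in 3 of 9 and Gpx1 in 3 of 9, with means of 1.71 and 1.28 on the log2 scale. Suffix a cells had both in 9 of 9, with Prdx2 at 295 to 3569 RPKM and Gpx1 at 921 to 6127 RPKM. Prdx1, Prdx3 and Txn1 were detected in 0 of 9 suffix d cells, against 4, 3 and 8 of 9 suffix a cells. A count of 0 of 9 allows a share of cells with the transcript detected at this depth of up to 33.6% (upper end of the exact 95% interval). Estimated reads had a median of 0.222 M in suffix d and 1.58 M in suffix a cells, and detected genes of 343 and 1381. Globins made up a median of 2.84% of summed RPKM in suffix d and 59.9% in suffix a cells, with a median of 3 and 7 of 12 erythroid markers, and the part of depth or of these markers in the member levels was not tested. Cat was at 0 in all 18 cells. Sod2 alone was detected in most cells of both kinds, in 7 of 9 and 8 of 9. Its suffix d median was 1.73 RPKM, near the cut for detection. Sod2 has the longest transcript of the members, at 5861 bases, so 1 read gives fewer RPKM than in the others. Detection is therefore not alike between members at this depth.

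The 7 EPO-treated class A cells had Prdx2 at a median of 104 RPKM and Gpx1 at 89.7 RPKM. Their globins made up a median of 1.26% of summed RPKM, their granulocyte and monocyte markers summed to a median of 236 RPKM and up to 11487 RPKM, and 1 cell held 5 of 5 mast cell and basophil markers. The part of these markers in the EPO-treated member levels was not tested. The 6 wild-type class A cells had Prdx1 at 41.0 to 948 RPKM with a median of 267, Prdx6 at a median of 90.8 RPKM and Sod1 at a median of 1219 RPKM. Their Prdx2 was low, with a median of 26.6 RPKM and a highest value of 586 RPKM, below every wild-type cell of classes B to D. Their mast cell and basophil markers summed to a median of 31434 RPKM and their granulocyte and monocyte markers to 1031 RPKM, against medians of 0 and 1.42 RPKM in wild-type classes B to D, and their part in the member levels was not tested. Gpx1, at 273 to 1397 RPKM, was likewise below the wild-type range of classes B to D.

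Within class B of the Flvcr-deleted cells, cells 7, 13, 16 and 40 held globins at 0.320% to 2.71% of summed RPKM, against 48.2% to 96.8% in the other 12 cells. These 4 cells had 2455 to 3452 detected genes, against 645 to 2294, and 6 to 8 of 12 erythroid markers. Their Prdx2 was 435 to 898 RPKM, against a median of 2177 RPKM, and their Gpx1 1265 to 2207 RPKM, against 2295 to 6795 RPKM. Their Sod2 was 39.8 to 124 RPKM, against a median of 3.69 RPKM, and their Prdx6 24.5 to 283 RPKM, against a median of 0. Prdx1 stood at 155 to 1059 RPKM and Sod1 at 908 to 3132 RPKM, against medians of 144 and 615 RPKM. For Gpx1 the 4 cells and the other 12 did not overlap, and for the other members named they did. Without them the difference between Flvcr-deleted and wild-type cells was -0.01 for Prdx2, -0.92 for Sod2, -1.05 for Prdx6 and -1.44 for Sod1.

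The wider antioxidant pathways were described from lists of genes around the members. Of 10 other peroxidases and superoxide dismutases 2 were kept, Prdx4, the peroxiredoxin of the endoplasmic reticulum, and Ccs, the copper chaperone that loads Sod1. Ccs differed from wild-type cells by -1.42 in Flvcr-deleted and by -1.69 in EPO-treated cells, lower by the rule in both, while Prdx4 did not reach the rule. Of all kept genes 48.3% and 42.0% were lower in these comparisons. Relative to the median gene Ccs differed by -0.35 and -0.71 and did not reach the rule. Of 17 genes of the thioredoxin and glutaredoxin system 6 were kept, and 2 were lower in Flvcr-deleted than in wild-type cells, against 48.3% of all kept genes, with a list median of -0.90, against -1.08 for all kept genes. They were Txnrd2, the mitochondrial thioredoxin reductase, at 1.11 in Flvcr-deleted and 5.17 in wild-type cells, and Txnl1, at 2.61 in Flvcr-deleted and 4.87 in wild-type cells. Relative to the median gene these 2 differed by -2.99 and -1.19 and were lower by the rule, against 17.4% of all kept genes. In EPO-treated cells 4 of the 6 were lower, against 42.0% of all kept genes, with a median of -1.53, against -0.99 for all kept genes. Relative to the median gene 0 of the 6 were lower there and 1 was higher, against 11.1% and 8.15% of all kept genes.

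Of 14 genes of glutathione synthesis and NADPH supply 5 were kept, with 3 lower in Flvcr-deleted cells, against 48.3% of all kept genes, and a median of -1.31, against -1.08. Relative to the median gene 2 of the 5 were lower, against 17.4% of all kept genes. Taldo1 and Tkt, both enzymes of the pentose phosphate pathway, differed by -2.86 and -2.16, and Gclc, the catalytic subunit of the enzyme that limits glutathione synthesis, by -1.31, which is -0.24 relative to the median gene. In EPO-treated cells 1 of the 5 was lower, Taldo1, at -2.16, against 42.0% of all kept genes. Relative to the median gene Taldo1 differed by -1.18 there and did not reach the rule in all 3 classes. Of 14 regulators and targets of NRF2 and BACH1 3 were kept: the ferritin chains Fth1 and Ftl1 and the biliverdin reductase Blvrb. In Flvcr-deleted against wild-type cells 0 of the 3 reached the rule, where 48.3% of all kept genes were lower and 3.74% higher. They differed by -0.26, 0.33 and -0.31. Relative to the median gene Ftl1 was higher, against 16.5% of all kept genes. In EPO-treated cells Ftl1 and Blvrb were lower, at -1.24 and -1.46, against 42.0% of all kept genes. Relative to the median gene they differed by -0.26 and -0.48, and neither reached the rule. Hmox1, the heme oxygenase, was not kept and was seen in 2 of 30 Flvcr-deleted cells and in no EPO-treated (0 of 24) or wild-type cell (0 of 42), a gene named after its values were seen.

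Gpx1 and Gpx4 are selenoproteins, and of 17 measured genes of selenoprotein synthesis and other selenoproteins 3 were kept. Sepw1, a small selenoprotein, was higher in Flvcr-deleted cells, at 5.06, against 3.13 in wild-type cells, with differences of 2.73, 1.37 and 1.71 in classes B, C and D. Sep15, a selenoprotein of the endoplasmic reticulum, was lower there, at 2.20, against 5.14 in wild-type cells. Selk did not reach the rule against wild-type cells in Flvcr-deleted cells, at -0.29, and was lower in EPO-treated cells, at -1.94. There 42.0% of all kept genes were lower, and relative to the median gene Selk, at -0.96, did not reach the rule. The 3 kept selenoproteins beside the members thus went different ways in Flvcr-deleted cells.

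Across single cells Prdx1, Prdx6, Sod1 and Txn1 went together, and Gpx1 ran against them in Flvcr-deleted and wild-type cells. Spearman's rho between Prdx6 and Sod1 was 0.40 over 30 Flvcr-deleted, 0.73 over 24 EPO-treated and 0.61 over 42 wild-type cells of classes B to D, and between Prdx1 and Sod1 it was 0.32, 0.63 and 0.56. For Gpx1 and Txn1 it was -0.43 in Flvcr-deleted, 0.18 in EPO-treated and -0.46 in wild-type cells, and for Gpx1 and Prdx1 -0.30, 0.49 and -0.44. Gpx1 and Prdx2 had a rho of 0.36 in Flvcr-deleted, 0.63 in EPO-treated and 0.28 in wild-type cells. Cells share a chip and differ in depth, and rho with the number of detected genes was 0.36 for Sod1 and -0.53 for Gpx1 in Flvcr-deleted cells, 0.77 and 0.25 over the 21 EPO-treated cells of 1 chip, and 0.82 and -0.65 in wild-type cells. The rho of Gpx1 with the globin share was 0.44 in Flvcr-deleted, 0.47 in EPO-treated and 0.68 in wild-type cells, on values that all divide by the same total.

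**Figure D5:**
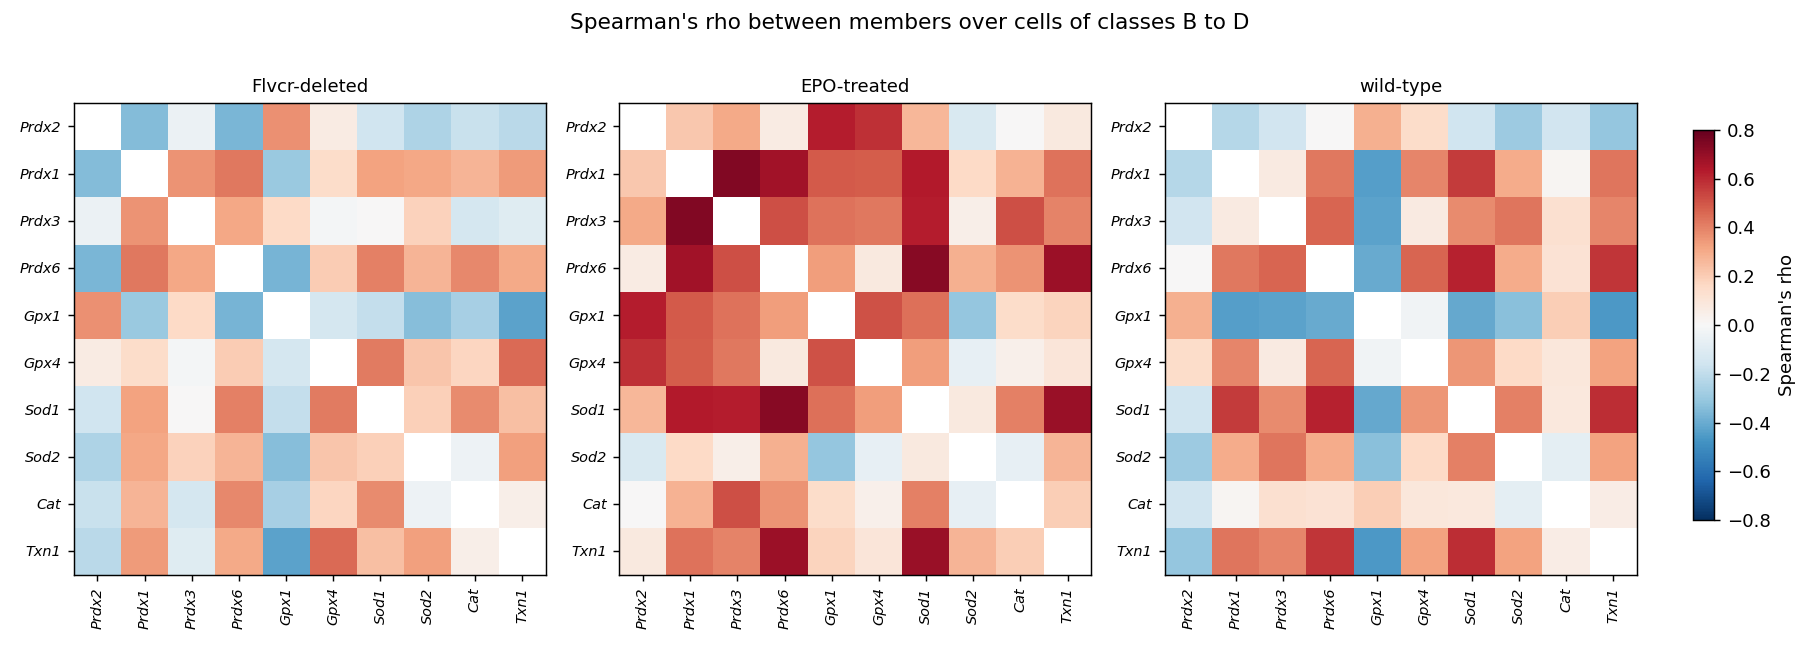
Spearman's rho between each pair of members over cells of classes B to D, for 30 Flvcr-deleted, 24 EPO-treated and 42 wild-type cells from left to right, on a colour scale running between -0.8 and 0.8. Gpx1 is negatively related to Prdx1, Prdx6, Sod1 and Txn1 in Flvcr-deleted and wild-type cells and positively in EPO-treated cells.

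The genes most alike to each member, by the mean of rho over the 3 groups among kept genes that are not members, differed from member to member. For Gpx1 they were the globin genes Hba-a1 and Hba-a2, both at 0.58, and Hbb-bt at 0.55, of which Hba-a1 and Hba-a2 are near-identical copies whose reads cannot be told apart. For Prdx2 they were the histone gene H3f3a (0.48), Gm12657 (0.48) and Hemgn (0.45), a nuclear protein of blood precursors. For Sod1 they were Dut, which hydrolyses dUTP (0.69), the translation factor Eif5a (0.67) and Tomm6 of the mitochondrial import pore (0.67). Prdx6 was most like Mdh1 (0.72), the cytosolic malate dehydrogenase, and Txn1 most like Gnb2l1, Rps27l and Rps3, all at 0.67, of which Rps27l and Rps3 encode ribosomal proteins. Prdx3 was most like Rpl17 (0.63), which also encodes a ribosomal protein.

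Prdx1 was most like AV051173, at 0.96, the noncoding gene that overlaps it. AV051173 averaged 1.61 in Flvcr-deleted, 1.24 in EPO-treated and 1.56 in wild-type cells on the log2 scale, against 3.98, 3.10 and 4.50 for Prdx1. Its next most alike genes were Phb and Slc25a5, both mitochondrial proteins, at 0.67 each. For Gpx4, Cat and Sod2 no gene exceeded 0.51, with Naa50 (0.49), Mrpl20 (0.48) and Srsf7 (0.51) first. RefSeq names near copies of Prdx1, Prdx2, Prdx6 and Gpx4, most of them pseudogenes, and how the authors counted reads with several matches is not stated, so the values of these members are uncertain to that extent.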

How the data were processed

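Single-cell cDNA of mouse marrow cells was measured in 1 table of RPKM values that the authors deposited, with 34898 rows and 24320 gene symbols. Per the submitters' processing notes, TopHat2 2.0.9 and the mm9 build were used, and neither the notes nor the labels name the counting tool, the annotation or how reads with several matches were handled. The 127 columns named for a labelled cell were used, and 4 other columns were not used. No 2 cells were alike (highest Pearson's r 0.741). Values were taken as log2(RPKM + 1), with a pseudocount of 1. Genes were kept where the mean log2 value of the 127 cells reached 1, and a gene was detected at an RPKM of at least 1. Group differences are means of the 3 class differences, and the rule for higher or lower needs at least 1 on the log2 scale with the same sign in all 3 classes. The ± values are mean within-class SDs over cells. Depth was estimated from the smallest step of the length-corrected values. The rule was tested on simulated data, and no outcome of that is used here. How the rule behaves where numbers of detected genes differ, as they did here, was not tested on such data. Each group is 1 sample, so no test across cells was made, and SDs and exact 95% intervals describe cells of that sample only. The text names the 10 members, up to 4 genes of each pathway list with the largest absolute difference per comparison, and up to 3 genes most alike to each member. The members and lists were chosen with earlier results of these data known. The alternatives cover pseudocounts, class weights, scaling and left-out cells. Analyses used python 3.11.15, pandas 2.3.3, numpy 2.4.6, scipy 1.17.1 and matplotlib 3.10.9.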

Additional observations from a re-analysis of the deposited data

Results flagged for a closer look

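Txn1, a thioredoxin that recharges some of the peroxiredoxins, went opposite ways between classes. For EPO-treated minus wild-type cells it differed by 1.26 on the log2 scale in class B and by -3.40 in class D. For Flvcr-deleted minus EPO-treated cells it differed by -1.14 in class B and by 2.60 in class D. Each group is 1 sample, so the difference between classes was not tested. Class D held 5 Flvcr-deleted, 4 EPO-treated and 13 wild-type cells.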

How the results depend on the processing

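No paired analysis was possible because each group is 1 sample and cell numbers only name cells. In Flvcr-deleted against wild-type cells, 1 member was lower as reported, beside 1227 of 2540 kept genes. With a pseudocount of 0.1, 5 members and 1480 kept genes were lower. Lower members and kept genes were 2 and 1133 with classes A to D, 4 and 1197 without class B, and 2 and 1417 without class D. They were 8 and 1537 with each cell scaled to the same sum, and 0 and 1104 with that sum taken without globins. Without the globin-poor cells, 3 members and 1340 kept genes were lower. The counts of kept genes became 61 higher and 469 lower with a pseudocount of 10, 17 higher with classes A to D, 22 higher with the same sum, and 406 higher and 484 lower in cells with 1000 to 2000 detected genes, where 1 member was higher and 0 were lower. In EPO-treated against wild-type cells, 5 members were lower as reported, against 2 with a pseudocount of 10, 2 with medians over cells and 2 in cells with 1000 to 2000 genes. Kept genes became 6 higher and 327 lower with a pseudocount of 10, 6 higher with classes A to D, 30, 36 and 24 higher without class B, C and D, 659 lower with medians, and 203 higher and 355 lower in cells with 1000 to 2000 genes. There Prdx1 and Prdx6 reversed to 0.49 each, and with medians Gpx1 reversed to 0.0309. In Flvcr-deleted against EPO-treated cells, 2 members were higher as reported, beside 197 of 2540 kept genes. Higher members and kept genes were 4 and 261 with a pseudocount of 0.1, and 4 and 193 without class D. Without the 4 EPO-treated cells of a second chip they were 5 and 234. The number of higher members was 0 with a pseudocount of 10, with classes A to D, with the same sum or with medians. Kept genes became 367 lower with a pseudocount of 0.1, 94 higher and 60 lower with 10, 62 higher with classes A to D, 443 higher without class B, 366 lower without class C, 470 lower without class D, 88 higher and 342 lower with the same sum, 123 higher with medians and 120 higher without the globin-poor cells. Sod1 reversed to -0.15 in cells with 1000 to 2000 genes. With class C in place of class D, Prdx2 in EPO-treated cells reversed to -0.41 against class B. The causes were not tested. Of the remaining alternatives, 728 values stayed within the SD over cells or 1.5 times the count, and 20 single-gene values moved further. The SD over cells was wide for most members, so staying within it does not show that a value was stable. Sod1 in EPO-treated against wild-type cells, for example, went from -2.74 to -0.17 in cells with 1000 to 2000 genes. Since the read depth of EPO-treated cells is unknown, absent transcripts there cannot be set against depth.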
